A study of Mus musculus with 6 samples.

Results

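The serotonin pathway of mouse group 2 innate lymphoid cells (ILC2s) was described through 10 genes, chosen by symbol and function, with earlier results of these data known. They are the synthesis enzymes Tph1 and Ddc, the vesicular transporters Slc18a1 and Slc18a2, the plasma membrane transporter Slc6a4, the degrading enzyme Maoa, and Gch1, Pts, Spr and Qdpr, which supply the cofactor tetrahydrobiopterin. All 10 were found among the 27179 Entrez gene IDs of the count table, and 8 of them passed the filter on low counts. The RNA came from ILC2s, innate lymphocytes that respond to epithelial alarm signals with type 2 cytokines. The cells had been sorted as Chat positive (3 libraries) or as Chat negative (3 libraries). Chat encodes choline acetyltransferase, which makes acetylcholine. The labels name the replicates of a gate by the numbers 1 to 3. The tissue, strain, age, any stimulus, any pooling of animals and the means by which Chat was detected are not named by the labels.

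Serotonin is made from tryptophan in a pair of steps. Tryptophan hydroxylase, which is Tph1 outside the nervous system, adds a hydroxyl group to tryptophan and sets the pace of the pathway. It needs iron, oxygen and tetrahydrobiopterin. Aromatic L-amino acid decarboxylase, encoded by Ddc, then turns 5-hydroxytryptophan into serotonin with the help of pyridoxal phosphate. Vesicular monoamine transporters load serotonin into granules, the serotonin transporter takes it back up from outside the cell, and monoamine oxidase A breaks it down. Tph1 is best known from enterochromaffin cells of the gut and from mast cells, and in mice it is also known as an enzyme of activated ILC2s.

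The libraries held 37154269 to 50361306 counts each. Chat, on which the cells were sorted, stood at 188, 169 and 204 CPM (the raw count scaled to a common library size) in Chat positive libraries 1, 2 and 3, against 16.5, 26.5 and 17.5 CPM in Chat negative libraries 1, 2 and 3. All 13 ILC2 markers listed had counts, and their summed level was 19794 to 25969 CPM in Chat positive and 18298 to 20574 CPM in Chat negative libraries. Markers of other cells that make or store serotonin were counted as well. Of 8 enterochromaffin and neuroendocrine markers, 4 had no count in any library (Chga, Chgb, Scg2 and Neurod1), and the summed level of 62.6 to 247 CPM in Chat positive and 49.15 to 168 CPM in Chat negative libraries was mostly Calca, which ILC2s also make. The 8 platelet markers summed to 0.054 to 0.372 CPM in Chat positive and 0.0709 to 0.324 CPM in Chat negative libraries. Of 12 mast cell and basophil markers, Cpa3, Tpsb2, Mcpt4 and Ms4a2 had no count in any library. The list's sum of 303 to 322 CPM in Chat positive and 279 to 363 CPM in Chat negative libraries was nearly all Kit and Mcpt8, and it overlapped between the gates. Epithelial markers summed to 34.4 to 59.2 CPM in Chat positive and 37.4 to 89.6 CPM in Chat negative libraries. The sums for T cells were 18.3 to 44.8 and 24.0 to 45.1 CPM, and for B cells 68.6 to 85.7 and 66.2 to 74.2 CPM. For macrophages and dendritic cells they were 8.27 to 23.3 and 8.16 to 23.9 CPM. The libraries of number 2 stood apart in both gates. Their counts differed from those of the other libraries of their gate by a chi-square of 132 to 187 per degree of freedom over genes, against 32.2 (Chat positive) and 31.5 (Chat negative) between numbers 1 and 3.

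Tph1 had the highest level per kilobase of the 10 genes. It lies on mouse chromosome 7 at 46644641 to 46672537 on the minus strand (Entrez 21990, mm10). Scaled by TMM and counted as CPM, it stood at 1471, 1289 and 1234 in Chat positive libraries 1, 2 and 3, against 862, 1127 and 824 in Chat negative libraries 1, 2 and 3. Every Chat positive library was above every Chat negative library. The Tph1 mean was 1331 ± 124 CPM in Chat positive cells and 938 ± 165 CPM in Chat negative cells (SD, n = 3 each). Libraries that did not overlap and lay higher in the Chat positive gate were found for 588 of 12967 genes tested, or 4.53%, and 3.61% lay lower without overlap.

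The Tph1 difference between the gates did not pass the threshold over all genes in edgeR, and of all the fits run it passed in DESeq2 with the replicate number as a block alone. Its log2 change was 0.51 (SE 0.15), which is a 1.42-fold difference with a 95% interval of 1.11 to 1.82. Its unadjusted p was 0.0121 and its adjusted p = 1.00 in edgeR's quasi-likelihood test with Benjamini-Hochberg adjustment over 12967 genes. At that threshold of 0.05, 0.00771% of the genes tested were called, which is Chat alone (adjusted p = 0.0174). Chat lost its own call in edgeR with the replicate number as a block (adjusted p = 0.0961) and in 6 of the 9 edgeR fits with libraries left out (adjusted p = 0.127 to 1.00), while its log2 change stayed between 3.05 and 3.53 over all alternatives. No pathway gene was called in this test (0 of 8), and Tph1 was the only member of the 8 with an unadjusted p under 0.05, beside 2.43% of all genes tested. DESeq2 and limma-voom without a block called none of the 8 either. In sorted bulk RNA, a larger share of Tph1 expressing cells and more Tph1 RNA per cell cannot be told apart.

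The size of the Tph1 difference varied between the replicate numbers, which no label states to be pairs. Whether it varied beyond the spread between libraries was not tested. The ratio of Chat positive to Chat negative Tph1 CPM was 1.71 for number 1, 1.14 for number 2 and 1.497 for number 3. Tph1 was thus higher in the Chat positive library for 3 of 3 numbers, as were 22.3% of the genes tested. With the replicate number as a block, its log2 change was 0.52 (SE 0.12) and its edgeR adjusted p = 0.162, while 44 genes (0.339%) were called. DESeq2 with the same block called Tph1, with a log2 change of 0.51 and an adjusted p = 4.82e-05, among 476 genes called (3.67% of 12967). This fit gave no adjusted p to some of the 12967 genes, among them Slc18a2, Slc6a4 and Maoa. Such genes could not be called, so the share called among genes with an adjusted p is higher. Without both libraries of number 2 the Tph1 log2 change was 0.68, and without both of number 1 it was 0.36, with edgeR adjusted p = 0.323 and 1.00. Without number 2, 2 genes were called in all, none of them a pathway gene.

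**Figure D1:**
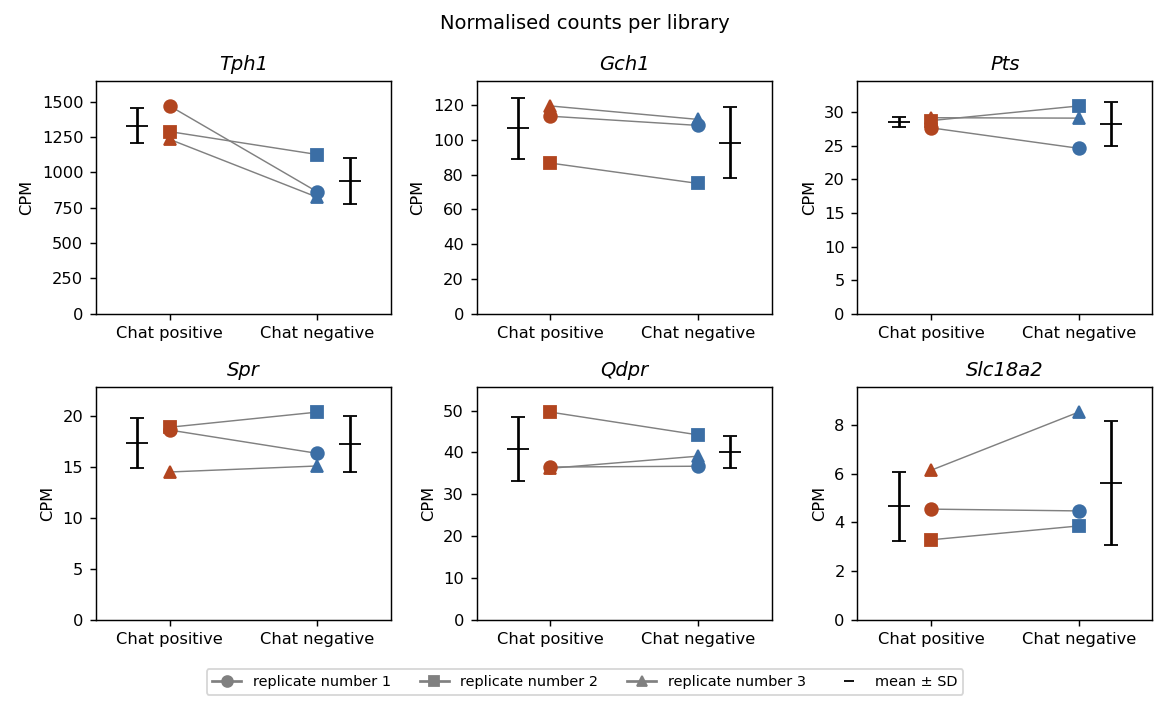
Normalised counts (CPM, y axes starting at 0) of 6 genes in each library, with the Chat positive gate on the left and the Chat negative gate on the right of each panel. Symbols mark the replicate number, grey lines join libraries of the same number, and black bars give the mean and SD of 3 libraries. For Tph1 the Chat positive libraries, at 1234 to 1471 CPM, lie above the Chat negative ones, at 824 to 1127 CPM, and in the other 5 panels the gates overlap.

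The gene-level counts do not separate the annotated starts of Tph1, nor those of Ddc. The RefSeq table of GRCm38.p6 gives each gene a pair of starts, and the 250 bases before each are shown here because these genes encode consecutive steps and stood at opposite ends of the abundance range. All 4 sequences run 5′ to 3′ on the minus strand, and capitals mark a CCAAT box on either strand.
Tph1, upstream start (chr7:46672538-46672787): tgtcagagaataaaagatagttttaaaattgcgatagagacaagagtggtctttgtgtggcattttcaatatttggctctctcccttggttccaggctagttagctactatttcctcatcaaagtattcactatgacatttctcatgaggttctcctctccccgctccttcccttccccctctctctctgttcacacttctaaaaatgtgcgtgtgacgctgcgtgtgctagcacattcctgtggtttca
Tph1, downstream start (chr7:46667378-46667627): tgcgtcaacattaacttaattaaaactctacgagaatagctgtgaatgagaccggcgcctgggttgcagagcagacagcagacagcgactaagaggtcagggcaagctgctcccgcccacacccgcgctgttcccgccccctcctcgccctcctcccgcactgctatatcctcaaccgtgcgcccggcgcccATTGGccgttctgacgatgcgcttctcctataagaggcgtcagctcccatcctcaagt
Ddc, upstream start (chr11:11898145-11898394): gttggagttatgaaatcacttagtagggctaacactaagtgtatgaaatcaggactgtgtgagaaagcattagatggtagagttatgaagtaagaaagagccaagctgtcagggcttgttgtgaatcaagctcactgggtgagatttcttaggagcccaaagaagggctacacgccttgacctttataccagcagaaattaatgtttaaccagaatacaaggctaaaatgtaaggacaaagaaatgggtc
Ddc, downstream start (chr11:11890409-11890658): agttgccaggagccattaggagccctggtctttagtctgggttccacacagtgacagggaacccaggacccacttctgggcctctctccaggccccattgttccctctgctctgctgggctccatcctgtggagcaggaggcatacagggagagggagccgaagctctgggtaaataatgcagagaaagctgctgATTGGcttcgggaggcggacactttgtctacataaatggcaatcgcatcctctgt

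The downstream starts of Tph1 and of Ddc each had a CCAAT box in reverse orientation, 58 and 55 bases before the start, counted from the first base of the match. Neither upstream start had a CCAAT box. CCAAT or its reverse complement ATTGG was found in 33.8% of the 32851 promoter windows of this length in the same table. The core of the cAMP response element, TGACG or its reverse complement CGTCA, occurred 3 times before the downstream Tph1 start, at 248, 47 and 21 bases, and once before the upstream Tph1 start, at 36 bases. It was absent from both Ddc windows, and 17.8% of all windows held it. The windows of Gch1, Maoa and Slc6a4 held this core as well. The full element TGACGTCA occurred in none of the 4 windows shown and in 1.55% of all windows. The GATA site AGATAA or TTATCT occurred in none of these 4 windows and in 9.99% of all windows, and TATAAA or TTTATA occurred in the upstream Ddc window and in 12.4% of all windows.

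Ddc, the enzyme of the second step, was at the limit of detection. It lies on chromosome 11 at 11814101 to 11898144 (Entrez 13195). It had 0, 0 and 0 counts in Chat positive libraries 1, 2 and 3, against 0, 2 and 1 counts in Chat negative libraries 1, 2 and 3. For a gate total of 0 counts a limit of 3 counts was set, or 0.0233 CPM over the Chat positive libraries. The upper end of its two-sided exact Poisson interval is higher, at 0.0286 CPM. The 3 counts of the Chat negative gate amounted to 0.0233 CPM (95% exact Poisson interval 0.0048 to 0.068). These limits cover counting error only, and the gates could not be told apart for Ddc at this depth. No exon base of Ddc is shared with another annotated gene. Genes that every cell uses can also stand near 0 in this table, since Rpl13 had 37 to 74 counts beside 29123 to 37066 for Rpl4. Why Rpl13 was low was not tested, nor was whether the same reason bears on Ddc.

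Levels of the 10 genes are compared with each other per kilobase of the longest transcript unless another length is named. On this scale Tph1 stood at 292 ± 27.1 CPM per kb in Chat positive and 206 ± 36.1 CPM per kb in Chat negative cells (SD, n = 3 each). This placed Tph1 between ranks 161 and 301 of 24390 genes in the 6 libraries. In the Chat positive gate its level per kilobase was 25143 times that of Ddc set to 3 counts over the gate. It was 20447 times the upper end of the exact Ddc interval there. In the Chat negative gate it was 17840 times that of Ddc, and 6104 times the upper end of the exact Ddc interval.

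**Figure D2:**
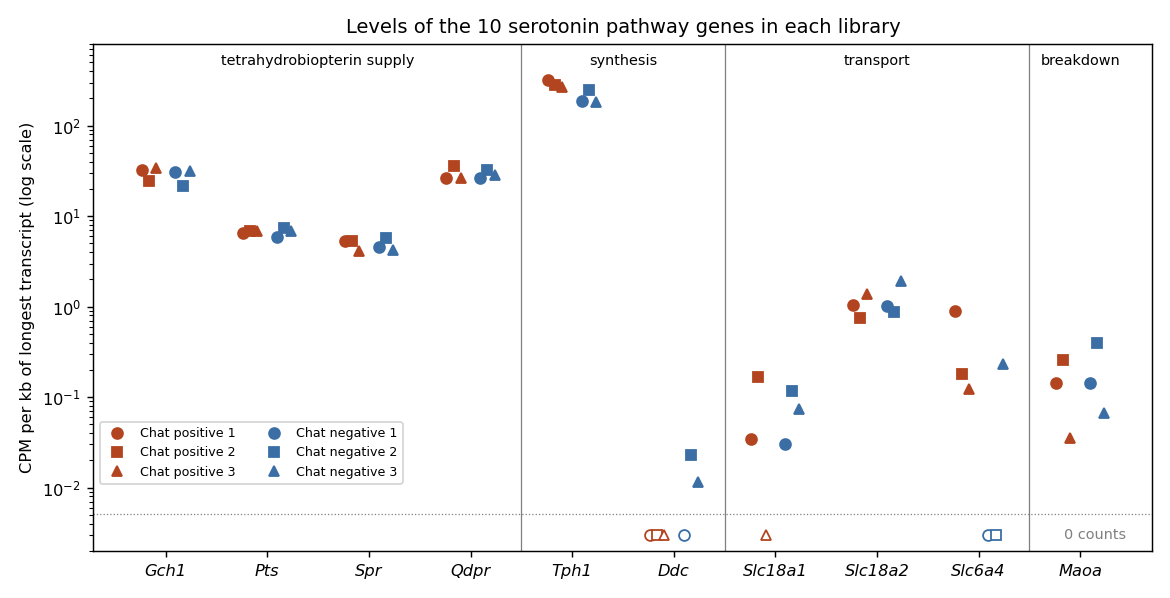
Level of the 10 genes in each library, as CPM per kb of the longest annotated transcript on a log axis, grouped by role. Red symbols on the left of each gene are Chat positive libraries, blue symbols on the right are Chat negative libraries, shapes give the replicate number, and open symbols below the dotted line mark 0 counts. Tph1 lies between 181 and 322, the 4 tetrahydrobiopterin genes between 4.09 and 36.0, and Ddc at or near 0.

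Genes of tetrahydrobiopterin supply were all expressed, with fitted folds of 1.00 to 1.08 between the gates and none past the threshold. GTP cyclohydrolase I, encoded by Gch1 (Entrez 14528, chromosome 14, 47153895 to 47189413), opens this route and limits its rate. Gch1 stood at 114, 86.7 and 119.5 CPM in Chat positive libraries 1, 2 and 3, against 108, 74.9 and 112 CPM in Chat negative libraries 1, 2 and 3. The libraries of number 2 were the lowest in both gates, and the gates overlapped. Its log2 change was 0.12 (SE 0.19, adjusted p = 1.00), with a 95% interval of 0.789- to 1.49-fold. Gch1 was slightly higher in the Chat positive library for 3 of 3 numbers, as were 22.3% of the genes tested. Its ratios were 1.05, 1.16 and 1.07.

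Pts encodes the synthase of the following step (Entrez 19286, chromosome 9, 50521617 to 50528716). It stood at 27.7, 28.8 and 29.2 CPM in Chat positive libraries 1, 2 and 3, against 24.6, 31.0 and 29.1 CPM in Chat negative libraries 1, 2 and 3. The Chat positive values lay within the range of the Chat negative ones. The log2 change of Pts was 0.02 (SE 0.13), with a 95% interval of 0.814- to 1.26-fold.

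Sepiapterin reductase, encoded by Spr (Entrez 20751, chromosome 6, 85133680 to 85137764), completes tetrahydrobiopterin. Spr stood at 18.6, 18.9 and 14.5 CPM in Chat positive libraries 1, 2 and 3, against 16.3, 20.4 and 15.1 CPM in Chat negative libraries 1, 2 and 3. The gates overlapped, and in each the library of number 3 was the lowest. Between the gates the log2 change was 0.01 (SE 0.18), with a 95% interval of 0.745- to 1.35-fold. A processed copy, Spr-ps1, lies nearby in the RefSeq annotation and has no row in the count table, so reads shared between the copies make the level of Spr uncertain.

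Quinoid dihydropteridine reductase, encoded by Qdpr (Entrez 110391, chromosome 5, 45434032 to 45450229), restores tetrahydrobiopterin after each round of hydroxylation. Qdpr stood at 36.5, 49.6 and 36.2 CPM in Chat positive libraries 1, 2 and 3, against 36.7, 44.2 and 39.1 CPM in Chat negative libraries 1, 2 and 3. The library of number 2 was the highest in both gates. Its log2 change was 0.03 (SE 0.16), with a 95% interval of 0.781- to 1.33-fold. Of its exon bases, 18.6% overlap Gm42413 on the opposite strand, and since the strand setting of the counting is not given, reads of the pair cannot be told apart there.

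Tph1 thus stood well above its cofactor genes. The Tph1 level per kilobase was 9.60 times that of Gch1 in Chat positive and 7.33 times in Chat negative cells, and 9.88 and 7.09 times that of Qdpr. Gch1, at 30.4 ± 4.996 and 28.0 ± 5.80 CPM per kb in Chat positive and Chat negative cells, and Qdpr, at 29.6 ± 5.55 and 29.0 ± 2.77, did not differ beyond their spread. Pts, at 6.78 ± 0.184 and 6.71 ± 0.772 CPM per kb, and Spr, at 4.89 ± 0.694 and 4.87 ± 0.780, came next (SD, n = 3 each). The order among these 4 genes depended on the transcript length used. With the mean length of the coding transcripts, the Chat positive level of Pts was 48.1 CPM per kb, above 38.7 for Qdpr, 38.4 for Gch1 and 17.1 for Spr, while that of Tph1 was 579.

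Transporters and monoamine oxidase A were sparse. Slc18a2, the vesicular monoamine transporter of neurons, mast cells and platelets (Entrez 214084, chromosome 19, 59260878 to 59296012), stood at 4.54, 3.28 and 6.13 CPM in Chat positive libraries 1, 2 and 3, against 4.47, 3.85 and 8.52 CPM in Chat negative libraries 1, 2 and 3. In both gates the library of number 3 was the highest and that of number 2 the lowest. Its log2 change was -0.27 (SE 0.38, adjusted p = 1.00). Its relative Slc18a1, the vesicular transporter of neuroendocrine cells (Entrez 110877, chromosome 8, 69037708 to 69089238), had 4, 27 and 0 counts in Chat positive libraries 1, 2 and 3, against 4, 16 and 10 counts in Chat negative libraries 1, 2 and 3. It was not tested. The gate totals of 31 and 30 counts in Chat positive and Chat negative cells correspond to 0.241 and 0.233 CPM, with 95% exact Poisson intervals of 0.164 to 0.342 and 0.157 to 0.332, which cover counting error only. Single libraries were spread more widely, at 0.108, 0.524 and 0 CPM in Chat positive libraries 1, 2 and 3, against 0.0945, 0.369 and 0.232 CPM in Chat negative libraries 1, 2 and 3. Chat positive library 2 supplied 27 of the 31 counts of its gate.

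Slc6a4, the serotonin transporter (Entrez 15567, chromosome 11, 76998597 to 77032343), had 93, 26 and 14 counts in Chat positive libraries 1, 2 and 3, against 0, 0 and 28 counts in Chat negative libraries 1, 2 and 3. In CPM these are 2.51, 0.505 and 0.348 for Chat positive, against 0, 0 and 0.648 for Chat negative libraries. The gates overlapped, because Chat negative library 3 lay above Chat positive libraries 2 and 3. Chat positive library 1 supplied 69.9% of the counts of its gate. The log2 change was 2.35 (SE 1.52, adjusted p = 1.00), with a 95% interval of 0.422- to 61.6-fold. Without Chat positive library 1 the log2 change was 0.97. The direction was higher for numbers 1 and 2 and lower for number 3.

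Maoa, which encodes monoamine oxidase A (Entrez 17161, chromosome X, 16619698 to 16687812), had 22, 55 and 6 counts in Chat positive libraries 1, 2 and 3, against 25, 71 and 12 counts in Chat negative libraries 1, 2 and 3. These are 0.5945, 1.07 and 0.149 CPM in Chat positive, against 0.591, 1.64 and 0.278 CPM in Chat negative libraries. The order of the numbers was the same in both gates, with number 2 the highest and number 3 the lowest. The log2 change was -0.46 (SE 0.86, adjusted p = 1.00). Per kilobase, Slc18a2 averaged 1.06 and 1.28 CPM in Chat positive and Chat negative cells, Slc6a4 0.401 and 0.0773, Maoa 0.145 and 0.200, and Slc18a1 0.0677 and 0.0744. Among Slc6a4, Maoa and Slc18a1 the libraries overlapped, so this order is not firm.

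The surroundings of the pathway were followed in 8 further lists with 55 genes, of which 28 were tested. None of the 28 passed in edgeR, in DESeq2 or in limma-voom, with or without the replicate block. Genes to which DESeq2 with the block gave no adjusted p were counted as not passing. Without the block, 0 of the 28 had an unadjusted p under 0.05 in edgeR, 0 in DESeq2 and 2 in limma-voom, where the shares of all genes tested were 2.43%, 3.44% and 2.59%. With the block the counts were 5, 4 and 4 of 28, and the shares of all genes tested were 16.5%, 14.1% and 16.1%. Without the block the median log2 change of the 28 was 0.03, with 16 above 0, and the median over all genes tested was 0.00443. The 8 tested members of the pathway itself had a median log2 change of 0.02, with 6 above 0.

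**Figure D3:**
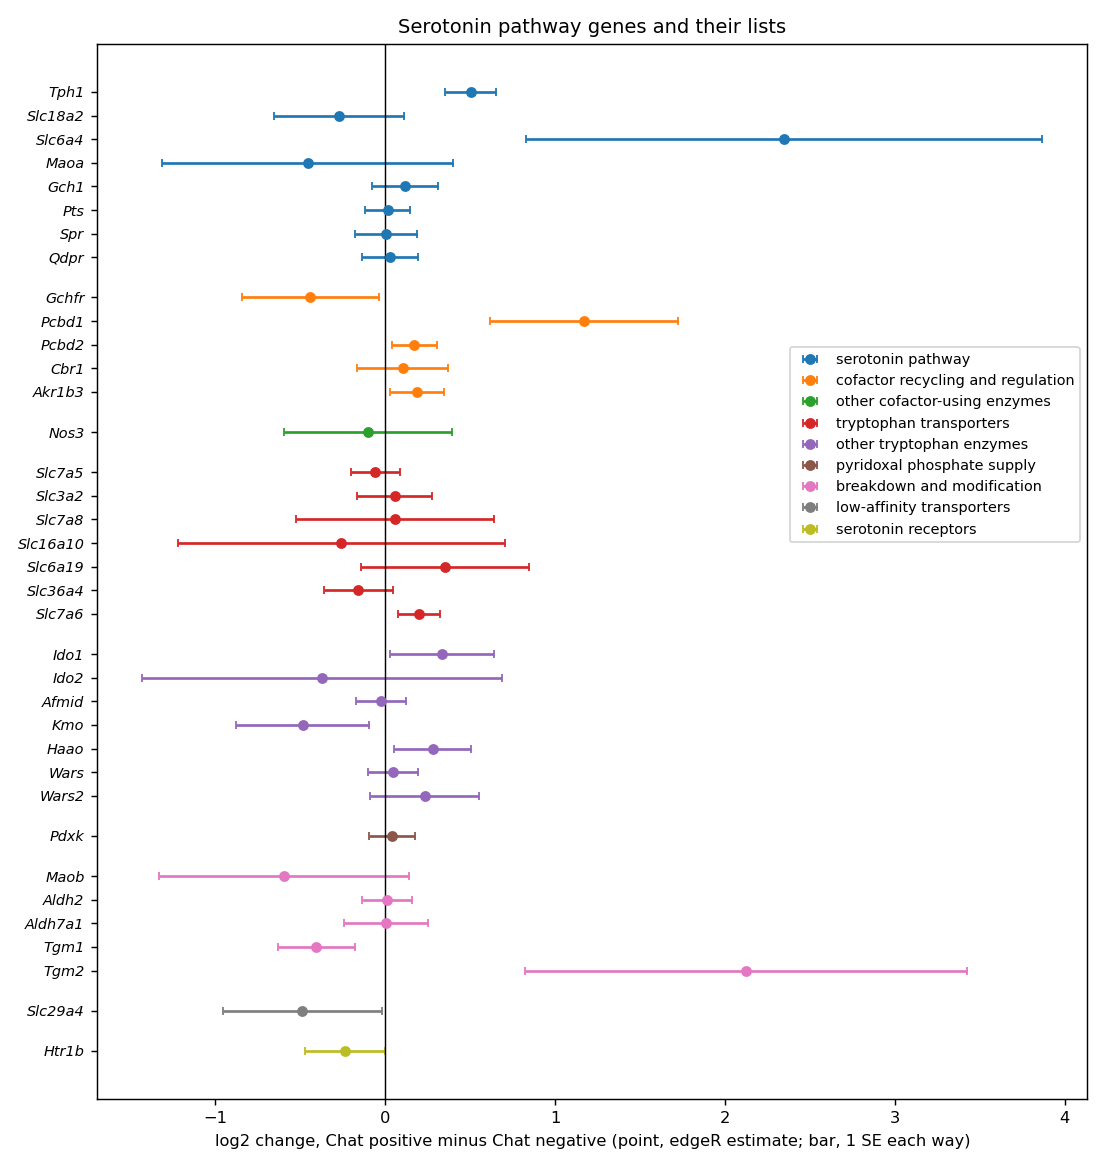
Log2 change of each tested gene of the pathway and of the 8 lists around it, as Chat positive minus Chat negative. Points are edgeR estimates, bars reach 1 SE to each side, and colours give the list. Tph1 stands at 0.51, Gch1, Pts, Spr and Qdpr lie between 0.01 and 0.12, and no gene shown passed the threshold over all genes tested.

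Genes that recycle tetrahydrobiopterin, replace it by salvage or regulate its synthesis were followed in 5 genes, all tested. None was called and 4 lay above 0, with a median log2 change of 0.17. The aldose reductase Akr1b3 stood at 27.8 ± 3.25 CPM in Chat positive and 24.4 ± 3.51 CPM in Chat negative cells, and the carbonyl reductase Cbr1 at 27.2 ± 7.17 and 25.3 ± 6.52 CPM (SD, n = 3 each). The dehydratases Pcbd1 and Pcbd2, which act between Tph1 and Qdpr in the recycling of the cofactor, were the list's 2 of 5 members without overlap between the gates, both higher in Chat positive cells, as were 4.53% of all genes tested. Pcbd2 stood at 17.6, 19.2 and 20.3 CPM in Chat positive libraries 1, 2 and 3, against 16.4, 17.5 and 16.8 CPM in Chat negative libraries 1, 2 and 3. Pcbd1 had 19, 34 and 25 counts in Chat positive against 17, 5 and 12 counts in Chat negative libraries. Their log2 changes were 0.17 (SE 0.13) and 1.17 (SE 0.55), each with an edgeR adjusted p = 1.00. Gchfr, which encodes the feedback regulator of GTP cyclohydrolase I, had a log2 change of -0.44 (SE 0.41) and stood at 3.19 ± 0.973 CPM in Chat positive and 4.325 ± 1.795 CPM in Chat negative cells.

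Other enzymes that use tetrahydrobiopterin had few counts. Th, the tyrosine hydroxylase of catecholamine cells, had 0 counts in all 6 libraries. Tph2, the tryptophan hydroxylase of neurons, had 0 in all Chat positive libraries, against 0, 2 and 0 counts in Chat negative libraries 1, 2 and 3. Of the 6 genes listed Nos3 alone was tested. Nos3, endothelial nitric oxide synthase, stood at 0.43 ± 0.176 CPM in Chat positive and 0.458 ± 0.0378 CPM in Chat negative cells.

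Tryptophan enters cells through large neutral amino acid transporters, and 7 of 7 such genes were tested, 4 above 0 and none called. Slc7a5, the light chain of the main transporter of activated lymphocytes, stood at 211 ± 31.8 CPM in Chat positive and 219 ± 25.6 CPM in Chat negative cells. Its partner Slc3a2 stood at 271 ± 63.1 and 261 ± 62.7 CPM. Slc7a8, an alternative light chain, followed the replicate number rather than the gate, at 136, 377 and 135 CPM in Chat positive libraries 1, 2 and 3, against 126, 378 and 118 CPM in Chat negative libraries 1, 2 and 3.

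Enzymes that draw tryptophan elsewhere were not called either, with 7 of 9 tested and 4 above 0. Wars, which charges tryptophan onto its tRNA, stood at 110 ± 14.2 CPM in Chat positive and 107 ± 15.1 CPM in Chat negative cells. The kynurenine pathway enzyme Haao stood at 24.6 ± 4.83 and 20.3 ± 4.57 CPM, and Afmid, another enzyme of that pathway, at 12.2 ± 0.310 and 12.4 ± 1.01 CPM. The supply of pyridoxal phosphate was represented by the pyridoxal kinase Pdxk, at 30.4 ± 3.55 CPM in Chat positive and 29.6 ± 2.23 CPM in Chat negative cells.

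Among 9 genes for other breakdown and modification of serotonin, 5 were tested, 3 lay above 0 and none was called. The aldehyde dehydrogenases Aldh2 and Aldh7a1 stood at 30.3 ± 1.21 and 22.7 ± 5.57 CPM in Chat positive cells, against 29.99 ± 4.77 and 22.6 ± 5.45 CPM in Chat negative cells. Tgm1, a transglutaminase, stood at 8.19 ± 1.47 CPM in Chat positive and 10.8 ± 2.19 CPM in Chat negative cells. Maob, which encodes the other monoamine oxidase, stood at 1.95, 11.5 and 3.23 CPM in Chat positive libraries 1, 2 and 3, against 5.77, 15.05 and 4.40 CPM in Chat negative libraries 1, 2 and 3. As with Maoa, number 2 was the highest in both gates. The melatonin enzyme gene Asmt had no count in any library.

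The low-affinity transporter Slc29a4 stood at 4.35 ± 2.41 CPM in Chat positive and 6.11 ± 2.58 CPM in Chat negative cells, and the other 3 genes of its list had at most 1 count in a library. Of 14 serotonin receptor genes, 7 had no count in any library and Htr1b alone was tested. Htr1b, an inhibitory receptor coupled to G proteins, stood at 20.4, 17.0 and 25.5 CPM in Chat positive libraries 1, 2 and 3, against 27.6, 17.9 and 28.6 CPM in Chat negative libraries 1, 2 and 3. It was lower in the Chat positive library for 3 of 3 numbers, as were 17.3% of the genes tested, and the gates overlapped. The log2 change of Htr1b was -0.24 (SE 0.23, edgeR adjusted p = 1.00).

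The genes whose library pattern lay closest to that of Tph1 were sought among 8375 other genes with a mean of at least 10 CPM. Closeness was the mean absolute difference between the log2 deviations of a gene and of Tph1 from their own means over the 6 libraries. The closest was Areg, the epithelial repair factor amphiregulin, with a mean difference of 0.0718, where the median over all genes compared was 0.309. The smallest of 8375 differences lies below their median by construction, and the likeness of Areg to Tph1 was not tested. Areg stood at 371, 309 and 326 CPM in Chat positive libraries 1, 2 and 3, against 221, 271 and 238 CPM in Chat negative libraries 1, 2 and 3. The next were Pidd1, a death domain protein induced by p53, at 0.0911, the glutathione transferase Gstm1 at 0.101, 1110004F10Rik at 0.105 and Sgce, which encodes epsilon-sarcoglycan, at 0.111. The nearest gene of the pathway itself was Pts, at 0.247. Gch1 lay farther from Tph1 than Pts did, and it dipped in the number 2 libraries of both gates where Tph1 did not.

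**Figure D4:**
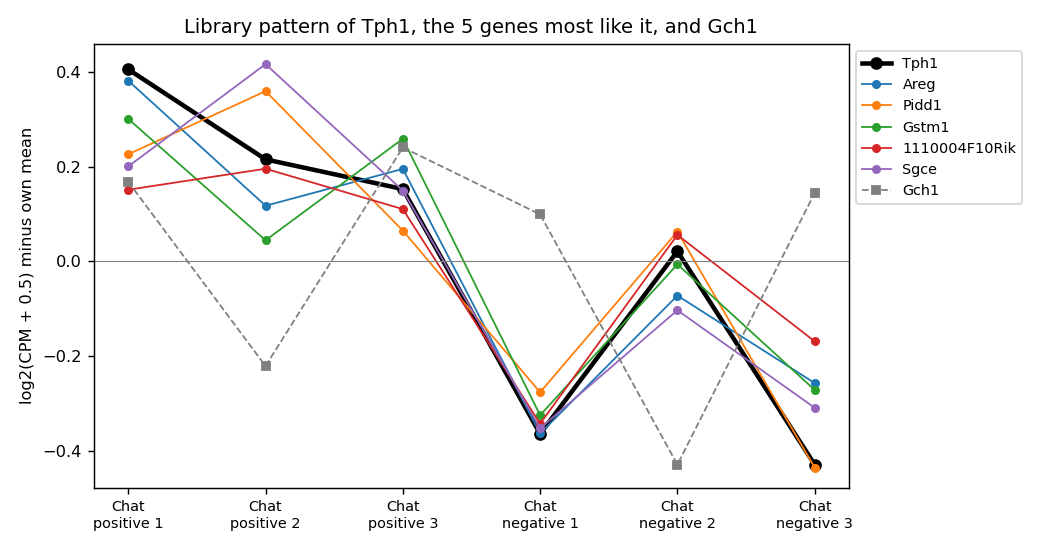
Deviation of log2(CPM + 0.5) from the gene's own mean in each of the 6 libraries, Chat positive on the left, for Tph1 (thick black line), the 5 genes with the closest pattern and Gch1 (dashed grey line). The 5 genes were picked for their likeness to Tph1 in these same 6 libraries, so their shared pattern follows from the choice. Gch1, which was not picked in this way, is lowest in the number 2 libraries of both gates.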

How the data were processed

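Per the labels, a Clontech SMARTer kit for small RNA amounts was used on the sorted cells. The authors deposited raw, not normalized, read counts per Entrez gene for the 6 libraries. Per the submitters' processing notes, STAR 2.3.0, CASAVA 1.8.2 and the build mm10 were used; how reads were counted, and with which strand setting, is not given in the sources used here. Symbols and coordinates came from the RefSeq table of GRCm38.p6 (25275 of 27179 IDs matched) and transcript lengths from GENCODE release M21 of the same build, matched by symbol.

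Genes were filtered with edgeR's filterByExpr (minimum count 10), which left 12967, scaled by TMM and tested in R 4.3.3 by the two-sided quasi-likelihood test of edgeR 4.0.16 with robust dispersions. The p-values of all 12967 genes were adjusted together by Benjamini-Hochberg, and 0.05 was the threshold. CPM are counts per scaled library size. DESeq2 1.42.0 and limma 3.58.1 served as alternatives. Whether the 3 libraries of a gate stem from different animals is not labelled; p-values therefore measure the spread between these libraries, which may be technical. Depth of 37154269 to 50361306 counts sets the limits for sparse genes; Poisson intervals are 95% and exact.

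Same-numbered libraries of the gates deviated together from the gate means (correlation across genes 0.39, 0.78 and 0.52 for numbers 1, 2 and 3), so the numbers were treated as pairs in the fit with a replicate block. No label states this pairing, which rests on the correlations alone. Deviations from a gate mean cancel out within the gate, and the libraries of number 2 stood apart in both gates. This favours positive correlations between numbers 1 and 3 in any pairing. Chat positive 1 and Chat negative 3 also correlated (0.29). Chat negative 1 correlated more with Chat positive 3 (0.42) than with Chat positive 1 (0.39), so the pairs of numbers 1 and 3 are not settled. The Tph1 call in DESeq2 with the replicate block depends on this pairing.

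The pathway genes and all lists were chosen with earlier results of these data known. The text names all 10 pathway genes, the 3 most abundant tested genes of each pathway list with any called gene, and the 5 genes most like Tph1; others, such as the Pcbd genes, Gchfr, Maob and genes without counts, were named after their values were seen. Promoter windows are the 250 bases before each RefSeq start. Some listed genes are not reported here and were left out of the lists' counts.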

Additional observations from a re-analysis of the deposited data

How the results depend on the processing

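The count of genes past the threshold was 1 and moved to 44 with the replicate block, 4 with DESeq2 and 476 with DESeq2 and the replicate block, and stayed at 1 with the other scalings, filters, limma-voom and no robust dispersions. With libraries left out, one at a time or both of a number, it ran between 0 and 2. The count of pathway genes past the threshold stayed at 0 in all 20 alternatives except DESeq2 with the replicate block, which called 1, Tph1 (log2 change 0.51, adjusted p = 4.82e-05). That fit gave Slc18a2, Slc6a4 and Maoa no adjusted p, so they could not be called in it. Over all alternatives the Tph1 log2 change kept its direction, between 0.36 and 0.68 with libraries left out, with an adjusted p of 4.82e-05 to 1.00. The replicate block in edgeR changed no call among the 8 pathway genes.

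Small log2 changes of other pathway genes turned round in some alternatives, and the cause was not tested. Spr turned to -0.0017 with RLE size factors, -0.0016 with DESeq2, -0.0014 with DESeq2 and the replicate block and -0.00035 with limma-voom and the replicate block, and ran from -0.093 to 0.14 with libraries left out. In the same way Gch1 ran from -0.046 to 0.24, Pts from -0.073 to 0.087, Qdpr from -0.14 to 0.11, Maoa from -1.17 to 0.49 and Slc18a2 from -0.54 to 0.16. The Slc6a4 fit rests on few counts: without Chat negative 3 its Chat negative gate is at 0 counts, so that its fitted change is no bound. With libraries left out but Chat negative 3 kept, the Slc6a4 change ran from 0.39 (without number 1) to 2.77. It was 4.05 with limma-voom (unadjusted p = 0.0415, adjusted p = 1.00) and 6.22 with DESeq2 and the replicate block (unadjusted p = 0.0213, no adjusted p given). Per kilobase, the mean coding length moved the Chat positive levels of 5 genes, Tph1, Gch1, Pts, Spr and Qdpr. Depth limits Ddc, Slc18a1, Slc6a4 and Maoa, each under 3 CPM in every library.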
